A study of Mus musculus with 4 samples.

Results

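The heat shock proteins, their J-protein partners and the chaperonins of the cytosol and mitochondria are the machinery that folds, refolds and disassembles other proteins. Members were taken by gene symbol: all protein-coding genes named Hspa, Hspb or Hsp90 with a number, Hspd1, Hspe1, Hsph1, the Dnaja, Dnajb and Dnajc series, the Cct series and Tcp1. This rule found 81 of the 21764 protein-coding genes, among 50600 genes counted in all. It used names only, not measured values. The samples were 4 bulk RNA libraries of C57BL/6NJ primary T cells, biological replicates 1 to 4 of a single group by their labels. The age was given as unknown, the sex as not collected, and no genotype, allele or treatment was named. The headers of the count tables carry the words mmTh0, activated_bulk and 72 h in every sample name, and the labels link a CD4+ T cell differentiation protocol. With 1 group there was no contrast between conditions, so the questions were how the level divided among the members and how far the 4 replicates differed.

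The library totals ran from 49613182 to 94222415 counted fragments. The 5 T cell markers checked, Cd3e, Cd4, Trac, Trbc2 and Cd5, lay between 255 and 1857 TPM throughout. TPM divides each count by the gene's length and brings all libraries to the same sum. S100a8, S100a9, Hbb-bs and Pf4, which mark neutrophils, red cells and platelets, had 0 counts, and the B cell markers stayed at or under 3.68 TPM. Of the macrophage and monocyte markers, Adgre1 averaged 3.21 TPM, and Lyz2 and Csf1r averaged 0.0136 and 0.0147. Of the CD8 T cell markers, Cd8b1 averaged 15.8 TPM and Cd8a 0.190. Fewer cells of a type and less RNA per cell cannot be told apart in bulk RNA. The labels give all 4 libraries 1 donor identifier, yet Xist stood at 332 and 150.1 TPM in replicates 1 and 2 and under 1 in the others, and the Y-linked gene Ddx3y at 49.0 and 45.8 TPM in replicates 3 and 4 and under 0.1 in the others. These levels go against a single donor, but the labels do not say whether each library came from its own animal, so the p-values below measure only the spread between these 4 samples.

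HSP70 proteins bind short hydrophobic stretches of unfolded chains in a cycle of ATP binding and hydrolysis. J proteins bring clients to HSP70 and stimulate its ATPase, and HSP110 proteins act as nucleotide exchange factors that end the cycle. HSP90 takes over late folding intermediates such as kinases and steroid receptors, the TRiC ring folds actin and tubulin inside its chamber, and HSP60 with its lid HSP10 does the corresponding work in the mitochondrial matrix. Small heat shock proteins hold unfolded chains without using ATP. Heat shock factor HSF1 drives many of these genes on heat or proteotoxic stress, and ATF6 drives those of the endoplasmic reticulum (ER) when unfolded protein collects there.

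Some members are near copies of other genes, and their sequences are shown first because they bear on which counts can be told apart and on how alike 2 of the genes are upstream. RefSeq promoter windows, from 250 bases before to 50 bases after a gene's start (build GRCm38.p6, which the files call mm10), were matched by symbol for 66 of the 81 members. The other members, among them Hspa8, Hsp90aa1 and Hsp90ab1, had no window and were not compared. Of 3549 pairs of windows of different members, compared base by base at the same distance from the start, Hspa1b and Hspa1a were alike at 296 of 300 bases (98.7%). The next pair, Hspd1 and Dnajc21, was alike at 38.0%. Hspa1b and Hspa1a are the classical heat-inducible HSP70 genes. Their 250 bases before the start, at chr17:34959239-34959488 and chr17:34972157-34972406, are given 5′ to 3′ on the minus strand, with the 3 positions that differ in capitals.
Hspa1b: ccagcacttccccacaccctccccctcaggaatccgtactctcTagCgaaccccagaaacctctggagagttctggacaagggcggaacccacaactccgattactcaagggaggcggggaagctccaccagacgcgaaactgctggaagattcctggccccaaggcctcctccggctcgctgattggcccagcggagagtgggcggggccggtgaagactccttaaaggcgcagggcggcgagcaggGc
Hspa1a: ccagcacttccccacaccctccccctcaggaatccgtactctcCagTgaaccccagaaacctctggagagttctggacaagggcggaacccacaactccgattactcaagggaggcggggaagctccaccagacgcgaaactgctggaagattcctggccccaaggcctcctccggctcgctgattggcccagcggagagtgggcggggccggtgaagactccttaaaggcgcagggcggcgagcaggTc
The likeness went on into the coding sequence, where the longest stretch that both transcripts hold without a difference within the Hspa1a exon was 638 bases. Its first 60 bases lie at chr17:34971710-34971769.
Hspa1a and Hspa1b: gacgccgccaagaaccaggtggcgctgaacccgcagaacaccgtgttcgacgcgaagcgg
Hspa8, the most abundant HSP70 gene, shares a stretch of 556 coding bases with Gm15459, a processed pseudogene, and Hsp90aa1 shares 276 with the pseudogene Gm12346. The first 60 bases of each, at chr9:40802974-40803033 on the plus strand and chr12:110695268-110695327 on the minus strand, show how a read can have more than 1 place of origin.
Hspa8 and Gm15459: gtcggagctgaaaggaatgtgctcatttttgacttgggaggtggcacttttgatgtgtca
Hsp90aa1 and Gm12346: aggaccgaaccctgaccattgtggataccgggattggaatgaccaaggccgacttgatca
Hspd1 and Hspe1, which encode HSP60 and HSP10, are transcribed away from each other, and their RefSeq windows overlap by 285 bases on opposite strands, at chr1:55087898-55088182.

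Of the 81 members, 65 (80.2%) were detected, meaning that all 4 libraries reached 1 TPM, against 49.4% of all protein-coding genes. The detected members had a median mean level of 53.2 TPM, beside 34.8 over all 10754 detected protein-coding genes. They spanned from Hsp90ab1 at 4946 ± 223 TPM (SD, n = 4), the eighth highest protein-coding gene, to Hspb7 at 2.42 ± 0.776. 10 members averaged at least 500 TPM, beside 268 of the 10754 detected protein-coding genes. A mean of at least 100 was found for 24 members, and 10 of the detected members averaged under 10. The shares of all genes at these last cuts are not given. Summed over all 81, the members held 17676 ± 378 TPM (SD, n = 4), or 1.77% of each library's TPM. The 4 sums were 17939, 17427, 18054 and 17283 for replicates 1 to 4. Replicates 1 and 3 were the higher pair for the whole set.

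**Figure D1:**
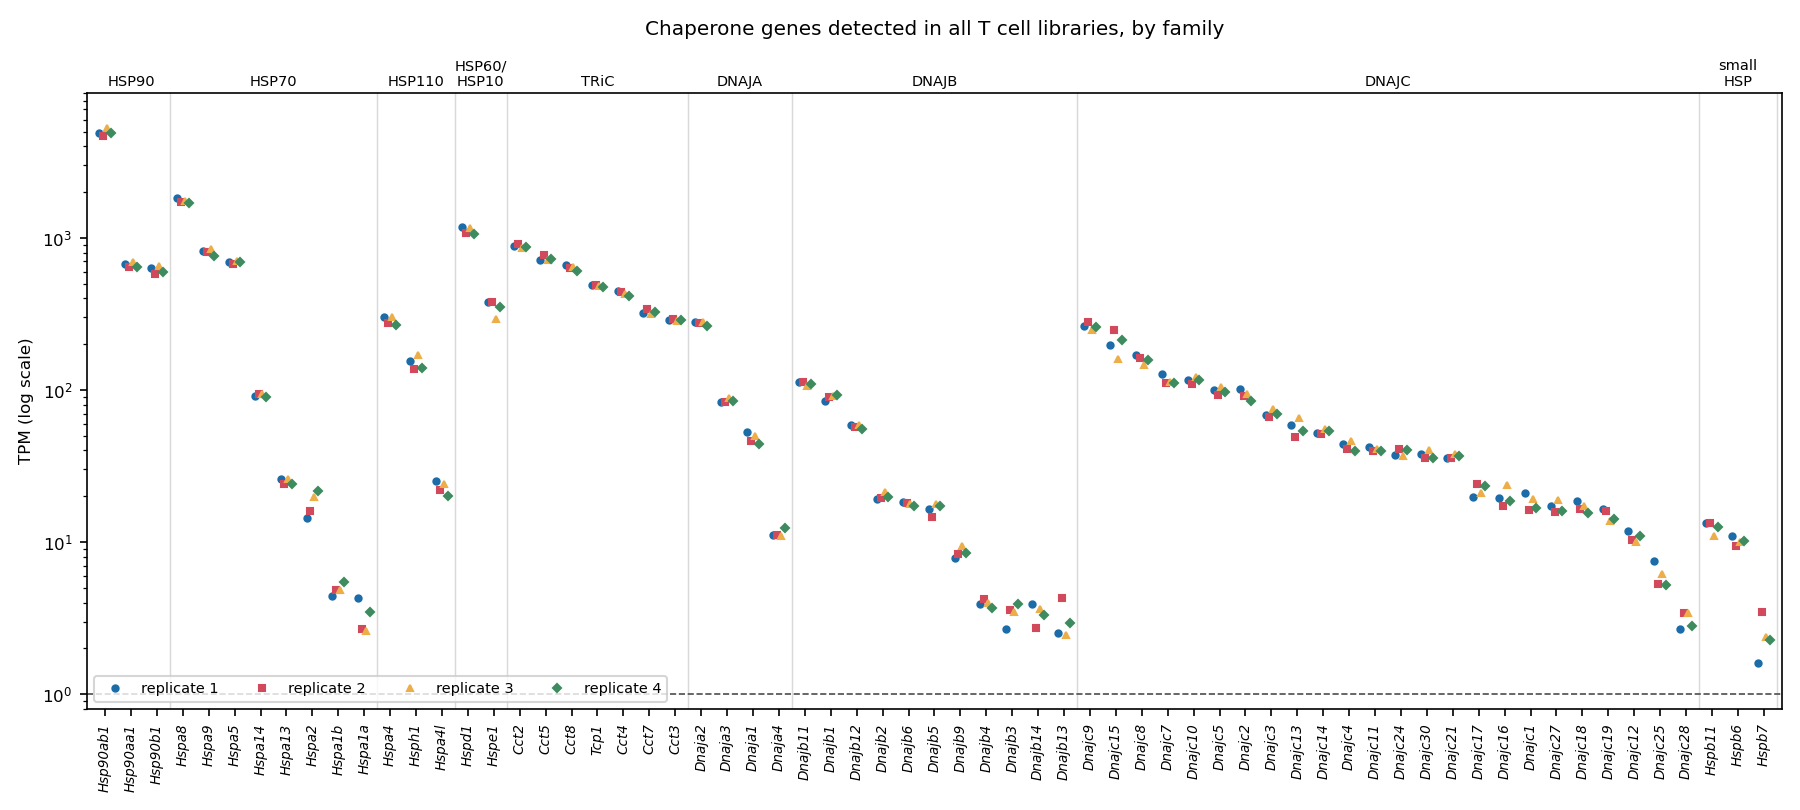
TPM on a log axis for the 65 detected chaperone genes, grouped by family and ordered by mean within it, with 1 marker for each of the 4 libraries; the dashed line is 1 TPM. Hsp90ab1 stands alone at the top, at 4712 to 5248 TPM, the 4 markers nearly coincide for most genes, and they part for low genes such as Hspb7 and Dnajb13 and for Dnajc15.

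Among the 16 members that were not detected, 7 had no fragment in any library: Dnajb7, Dnajb8, Dnajc5g, Cct8l1, Hspb2, Hspb3 and Hspb8. A count of 0 allows up to 3 fragments in a library, which for these genes comes to at most 0.110 (Cct8l1) to 0.276 TPM (Hspb3), for counting error only. Hspa1l, the HSP70 gene of male germ cells, had 1 fragment in all. The others were Hspa12a and Hspa12b, Dnajc5b, Dnajc6, Dnajc22, Cct6b, Hspb1 and Hspb9, with the highest mean, 1.204 TPM, in Dnajc22. Some of them are best known from other tissues: Dnajc6 encodes the neuronal auxilin that uncoats clathrin vesicles, and Dnajb7, Dnajb8 and Cct6b are known from testis.

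The HSP90 family was led by 1 gene. Hsp90ab1 (chr17:45567775-45573271), the constitutive cytosolic HSP90 beta, measured 4928, 4712, 5248 and 4895 TPM in replicates 1 to 4. Hsp90aa1 (chr12:110690605-110702728), the stress-inducible cytosolic HSP90 alpha, measured 675, 647, 699 and 646 TPM. Both were highest in replicate 3, and the ranges of the genes did not overlap. Hsp90ab1 held 79.4% ± 0.288 (SD, n = 4) of the family's 6228 ± 279 TPM. It exceeded Hsp90aa1 by 7.42 ± 0.151 times, a difference of 2.89 ± 0.03 in log2(TPM + 1) in the same direction in 4 of 4 libraries. Hsp90b1, the ER form also called GRP94, measured 633, 575, 655 and 599.9 TPM. It lay below Hsp90ab1 by a factor of 8.03 ± 0.186, or 3.00 ± 0.03 on the log2 scale. The mitochondrial HSP90, Trap1, is named outside the rule and averaged 274 ± 7.65 TPM. Of the windows of 50 bases in the Hsp90aa1 transcript, 58.5% also occur in transcripts of other genes, first of all the pseudogene Gm12346, while the share for Hsp90ab1 was 4.49%. The header's command sets no option for reads that map to several places, so levels of members with such windows are uncertain.

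All 15 gene pairs compared within libraries, of which these are the first, went in 1 direction in 4 of 4 libraries. Flipping the signs of the differences in all 16 ways, an exact two-sided permutation test, gave p = 0.13 for each, also after Benjamini-Hochberg adjustment over the 15 pairs. This is the smallest p that 4 libraries allow, so the test cannot reach 0.05 and the size and its SD are given instead.

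In the HSP70 family of 11 genes 8 were detected, and constitutive forms carried the level. Hspa8 (chr9:40800984-40810087), the constitutive cytosolic Hsc70, measured 1822, 1734, 1759 and 1688 TPM, and held 51.5% of the family's 3398 ± 88.7 TPM. Hspa9, the mitochondrial mortalin, measured 824, 810.3, 847 and 765 TPM. Hspa5 (chr2:34771970-34777547), the ER form BiP, measured 692, 675, 705 and 692. Each of the 3 varied by at most 1.11 times between its lowest and highest library, and their ranges did not overlap. Hspa8 exceeded Hspa9 by 1.11 ± 0.04 and Hspa5 by 1.34 ± 0.05 in log2(TPM + 1). TPM used the merged length of all annotated exons of a gene. With the length of the principal transcript instead, these differences were 1.59 and 1.98. That transcript is a main isoform as marked by APPRIS, the longest where several tied. Of the Hspa8 windows, 74.8% recur in other transcripts, first of all Gm15459, and 3 small nucleolar RNA genes lie in its exons.

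The classical heat-inducible HSP70 genes were low. Hspa1a measured 4.30, 2.69, 2.59 and 3.45 TPM and Hspa1b measured 4.44, 4.81, 4.84 and 5.42 TPM. Hspa1a ranged 1.66 times and was highest in replicate 1, where the genes were nearly level, and Hspa1b was the higher of the pair in 4 of 4 libraries by 0.48 ± 0.30 in log2(TPM + 1). These near copies, whose promoters are printed above, are neighbours on chromosome 17, and 60.4% of Hspa1a windows and 62.3% of Hspa1b windows occur in the other. Reads from those stretches cannot be given to 1 gene, so the split between them is uncertain. Hspa8 exceeded Hspa1a by 8.70 ± 0.24 and Hspa1b by 8.22 ± 0.14 on the log2(TPM + 1) scale. As ratios of TPM the differences were 559 ± 122 and 361 ± 40.3 times, and 1005 ± 220 and 649 ± 72.4 times with the principal transcript length.

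Of the remaining HSP70 genes, Hspa14, whose protein sits on ribosomes with the J protein Dnajc2, averaged 92.5 ± 1.69 TPM (SD, n = 4). Dnajc2 averaged 93.1 ± 6.96 TPM. With merged exon length these partners on the ribosome were thus less than their SD apart. With the principal transcript length Hspa14 averaged 144 ± 2.90 TPM and Dnajc2 151 ± 11.3, which is more than the SD of Hspa14 apart. Hspa13, an HSP70 of the ER and microsomes, averaged 25.1 ± 1.14 TPM. Hspa2, an HSP70 best known from spermatogenesis, measured 14.4, 16.04, 19.8 and 21.7 TPM. Replicates 3 and 4 lay above replicates 1 and 2, the same division as Ddx3y and Xist; the part of that division in the Hspa2 level was not tested. The adjusted p for a spread of Hspa2 beyond that of genes of like abundance was 0.639 (edgeR, described below).

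The 3 HSP110 genes, nucleotide exchange factors for HSP70, summed to 460 ± 33.0 TPM (SD, n = 4). Hspa4 measured 300.4, 275, 303 and 268 TPM, Hsph1, the heat-inducible HSP105, measured 154, 138, 169 and 140.5, and Hspa4l measured 25.2, 21.8, 24.2 and 20.0. All 3 were higher in replicates 1 and 3 than in replicates 2 and 4. Hspa4 exceeded Hsph1 by 0.93 ± 0.06 and Hspa4l by 3.60 ± 0.06 in log2(TPM + 1). The first of these differences was 0.26 with the principal transcript length, since the counted Hsph1 model spans 7266 bases and its principal transcript 3802.

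The mitochondrial chaperonin genes Hspd1 (chr1:55077835-55088243) and Hspe1 (chr1:55088132-55091307) start from the overlapping windows described above. Hspd1, which encodes HSP60, measured 1183, 1078, 1159 and 1065 TPM. Hspe1, which encodes HSP10, measured 377, 376, 294 and 351 TPM. Both genes were highest in replicate 1, but replicate 3 was the second highest for Hspd1 and the lowest for Hspe1. Hspd1 exceeded Hspe1 by 1.68 ± 0.20 in log2(TPM + 1), with single libraries between 1.52 and 1.97. The difference was 0.88 with the principal transcript length. Of the Hspd1 windows 44.8% recur in other transcripts, first of all Hspd1-ps3, and of the Hspe1 windows 36.1%, first of all AC117239.2. The file's spans of the genes overlap on opposite strands, and the counting used the strand.

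TRiC, also called CCT, is a ring of 8 different subunits that occur once in each ring. The rule found 7 of the 8 detected, plus Cct6b and Cct8l1, and their sum was 3783 ± 74.8 TPM (SD, n = 4). The eighth, Cct6a, is typed as a processed transcript in GENCODE mouse release 21 and so is no member by the rule; it is shown with the ring at 475 ± 6.35 TPM. Cct2 was the highest subunit, with 884, 905, 853 and 866 TPM, followed by Cct5 with 721, 776, 719 and 729 TPM. Cct8 measured 661, 631, 649 and 607. The middle of the ring was close together. Tcp1, the alpha subunit, measured 491, 492, 485 and 475 TPM, Cct6a 477, 474, 482 and 467, and Cct4 446, 439.5, 429 and 416. Tcp1 and Cct6a overlapped in range. Cct7 measured 318, 339.6, 317 and 327 TPM and Cct3 was the lowest at 288, 291, 283 and 290.1.

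The order of the 8 subunits was the same in all 4 libraries on the TPM scale, but its width depended on the length used. Relative to the mean of the 8 in the same library, Cct2 stood at 165% ± 2.11 and Cct3 at 54.1% ± 0.948 (SD, n = 4), and the highest exceeded the lowest by 3.04 ± 0.0560 times. The counted models run from 2557 bases for Cct2 to 6778 for Cct7, with 6370 for Cct3. With the length of the principal transcript, 1959 and 2441 bases for Cct2 and Cct7, the ratio of highest to lowest was 1.63 ± 0.0511, Cct3 stood at 101% of the mean, and Cct6a was lowest at 76.3%. On fragment counts without any length the ratio was 1.42 ± 0.0194, with Tcp1 highest at 119.9% and Cct6a lowest at 84.4%. Both of these scales were chosen after the data were seen. Across libraries each of the 8 moved by at most 1.09 times on the TPM scale.

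**Figure D2:**
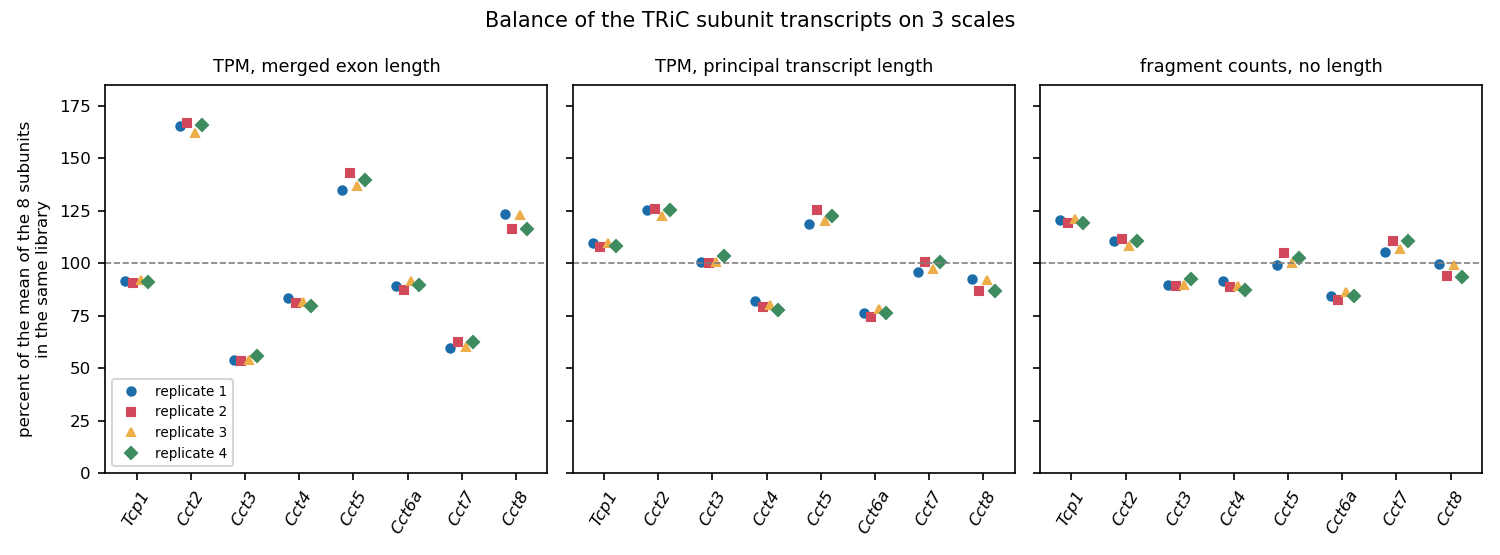
Level of each of the 8 TRiC subunit transcripts as a percent of the mean of the 8 in the same library, on 3 scales, with 1 marker per library and a dashed line at 100%. The 4 markers of a subunit lie close together in each panel, and the distance from the highest to the lowest subunit narrows from 3.04 times with merged exon length to 1.63 with principal transcript length and 1.42 with counts.

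The remaining Cct genes were near or at 0. Cct6b, which replaces Cct6a in testis, measured 0.669, 0.529, 0.614 and 0.404 TPM, from 16 to 21 fragments a library. Cct6a exceeded it by 8.26 ± 0.09 in log2(TPM + 1). Cct8l1 had 0 fragments.

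Of the 45 J proteins 39 were detected, and together they held 2310 ± 36.9 TPM (SD, n = 4), below the 3398 of the HSP70 genes they serve. The level was spread over many genes, and the leading J protein by merged exon length, Dnaja2, held 11.9% of it. With the principal transcript length Dnajc8 lay above Dnaja2, at 199 against 193 TPM. All 4 members of the DNAJA class, the J proteins most like bacterial DnaJ, were detected. Dnaja2 measured 279, 277, 279 and 262 TPM, and Dnaja1, its cytosolic paralog, 52.7, 46.3, 49.9 and 44.4 TPM. The difference of Dnaja1 from Dnaja2 was -2.48 ± 0.08 in log2(TPM + 1), and -1.90 with the principal transcript length. Of the Dnaja1 windows 18.3% recur elsewhere. Dnaja3, the mitochondrial partner of Hspa9, measured 83.8, 84.0, 88.2 and 85.1 TPM, and Dnaja4 averaged 11.4 ± 0.680.

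In the DNAJB class 11 of 13 were detected, with a sum of 335 ± 2.47 TPM. Dnajb11, an ER partner of Hspa5, led with 112, 113, 107 and 109.7 TPM. Dnajb1, the heat-inducible cytosolic HSP40, measured 85.0, 89.9, 91.2 and 92.5 TPM and Dnajb12, of the ER membrane, 59.1, 57.5, 59.3 and 55.6. Dnajb1 lay above the heat-inducible genes Hspa1a, Hspa1b and Hspb1 and below Hsph1 and the stress-inducible Hsp90aa1 in all 4 libraries. Dnajb6, which suppresses polyglutamine aggregation, measured 18.4, 18.1, 17.8 and 17.2 TPM. Dnajb1 exceeded Dnajb6 by 2.26 ± 0.09 in log2(TPM + 1), and by 0.50 with the principal transcript length, since the counted Dnajb6 model spans 6062 bases and that transcript 1605. Of the Dnajb6 windows 41.9% recur in other transcripts. Dnajb9, a further ER partner of Hspa5 that is induced by ER stress, measured 7.83, 8.28, 9.41 and 8.52 TPM, which was 3.55 ± 0.13 below Dnajb11 on the log2 scale.

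The DNAJC class, which shares only the J domain, had 24 of 28 detected and a sum of 1556 ± 34.4 TPM. Dnajc9, a histone chaperone, led with 264, 279, 247 and 261 TPM. Dnajc15, a protein of the mitochondrial inner membrane, followed with 198, 249.6, 161 and 213 TPM, and Dnajc8, a splicing-associated J protein, with 169, 162, 146 and 156. Replicate 3 was lowest for each of the 3. The order changed with the principal transcript length, where Dnajc8 averaged 199 TPM, Dnajc9 181, Dnajc7 167, Dnajc2 151 and Dnajc15 141. Dnajc7, which links HSP70 and HSP90, averaged 116 ± 7.69 TPM, Dnajc10, the ER disulfide reductase ERdj5, 116 ± 4.54, and Dnajc5, the vesicle protein CSP alpha, 98.1 ± 5.01. Dnajc3, the ER protein p58IPK, averaged 69.6 ± 3.47 TPM. Dnajc13, an endosomal J protein, averaged 56.7 ± 6.87.

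Dnajc15 and Dnajc19 encode paralogs that act at the import motor of the inner membrane. Dnajc19 measured 16.5, 16.0, 13.8 and 14.2 TPM, and Dnajc15 exceeded it by 3.66 ± 0.22 in log2(TPM + 1). With the principal transcript length the difference was 1.12, since the counted Dnajc19 model spans 4027 bases and its principal transcript 659, and Dnajc15 was left at its counted 648. Of the Dnajc19 windows 32.0% recur elsewhere, first of all in its pseudogene Dnajc19-ps.

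The small heat shock proteins were the lowest family, with 3 of 8 detected and a sum of 26.7 ± 1.79 TPM (SD, n = 4), or 44.2 ± 2.99 with the principal transcript length. Hspb11, whose protein is also known as the intraflagellar transport subunit IFT25, measured 13.4, 13.4, 11.0 and 12.5 TPM. Hspb6, the muscle protein HSP20, measured 10.9, 9.40, 9.99 and 10.2. Hspb7, a heart protein, measured 1.59, 3.47, 2.36 and 2.26 TPM. Hspb1, the heat-inducible HSP25, measured 1.33, 0.841, 0.627 and 1.397 TPM and was not detected by the threshold in every library. Those levels rest on 9 to 40 fragments a library, and 60.4% of the Hspb1 windows recur in other transcripts, first of all Hsp25-ps1.

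By compartment, the 8 members listed here under the ER lumen summed to 1655 ± 54.9 TPM and the 9 of the mitochondrion to 2669 ± 82.0 (SD, n = 4). The ER list is an assignment by gene that holds Dnajc1 and leaves out Dnajb12. All 17 were detected. Hspa5 held 41.8% of the ER sum and Hspd1 42.0% ± 1.63 of the mitochondrial sum. With the principal transcript length Hspd1 still led the mitochondrial members, at 843 TPM, while Hsp90b1 lay above Hspa5 in the ER, at 606 against 549 TPM.

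**Figure D3:**
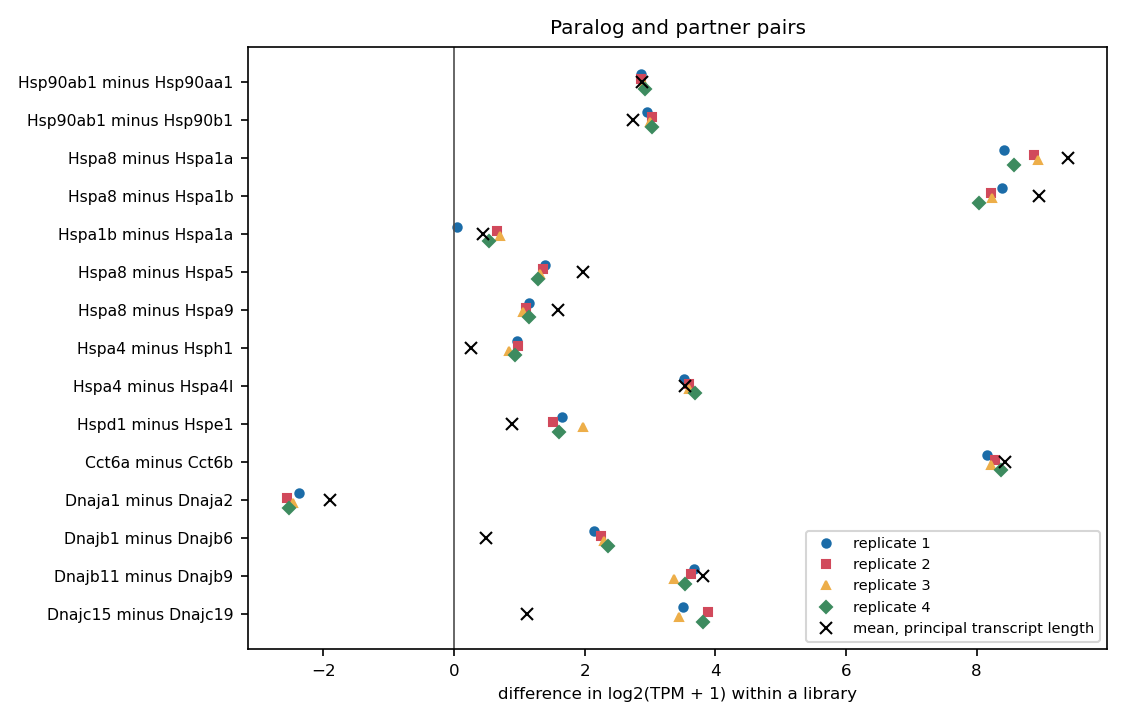
Difference in log2(TPM + 1) within a library for the 15 paralog and partner pairs, with 1 marker per library, and a cross for the mean recomputed with principal transcript length; the vertical line is 0. All library markers of a pair lie on the same side of 0, Hspa1b minus Hspa1a in replicate 1 comes nearest to it at 0.04, and the cross moves most for Dnajc15 minus Dnajc19, from 3.66 to 1.12.

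How far each member differed between the 4 replicates was tested by edgeR's intercept-only fit over all genes, which asks whether a gene spreads more than genes of like abundance. Of 69 members that passed the filter on low counts, 1 (1.45%) had a Benjamini-Hochberg adjusted p under 0.05, beside 94 of 13681 genes (0.687%). Without adjustment 3 members (4.35%) had a p under 0.05, beside 7.01% of all genes. The 1 call was Dnajc15 (chr14:77826217-77874917), with adjusted p = 0.0402 and a range of 1.55 times. Its counts were 2151, 2612, 1449 and 3826 fragments. Replicate 2 was highest and replicate 3 lowest. The call was lost in all alternatives run except for DESeq2 size factors (adjusted p = 0.0417). With per-library length and GC offsets the adjusted p was 0.269, with a common dispersion 0.155, and without replicates 1 to 4 in turn it was 0.0580, 0.615, 0.695 and 0.0794.

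The other members with an unadjusted p under 0.05 were Hspe1 (adjusted p = 0.435 by edgeR) and Hspa2 (0.639). Hspb7, with the fourth smallest p, had an edgeR adjusted p of 0.909, and of 0.0253 with a common dispersion. The common dispersion called 617 of 13681 genes, beside 94 in the main run, and Hspb7 was the only member among them. Dnajb13, known from sperm flagella, was next and measured 2.53, 4.28, 2.44 and 2.91 TPM (adjusted p = 0.980). Replicate 2 was highest for Dnajc15, Hspb7 and Dnajb13. Of the members with a mean of at least 1 TPM, the SD of log2(TPM + 1) was largest in Dnajc22, at 0.258, 1.61, 1.67 and 1.28 TPM from 8, 48, 43 and 66 fragments. It was left out of the edgeR test by the filter. Hspb7, Dnajb13, Hspb1 and Dnajc15 followed.

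**Figure D4:**
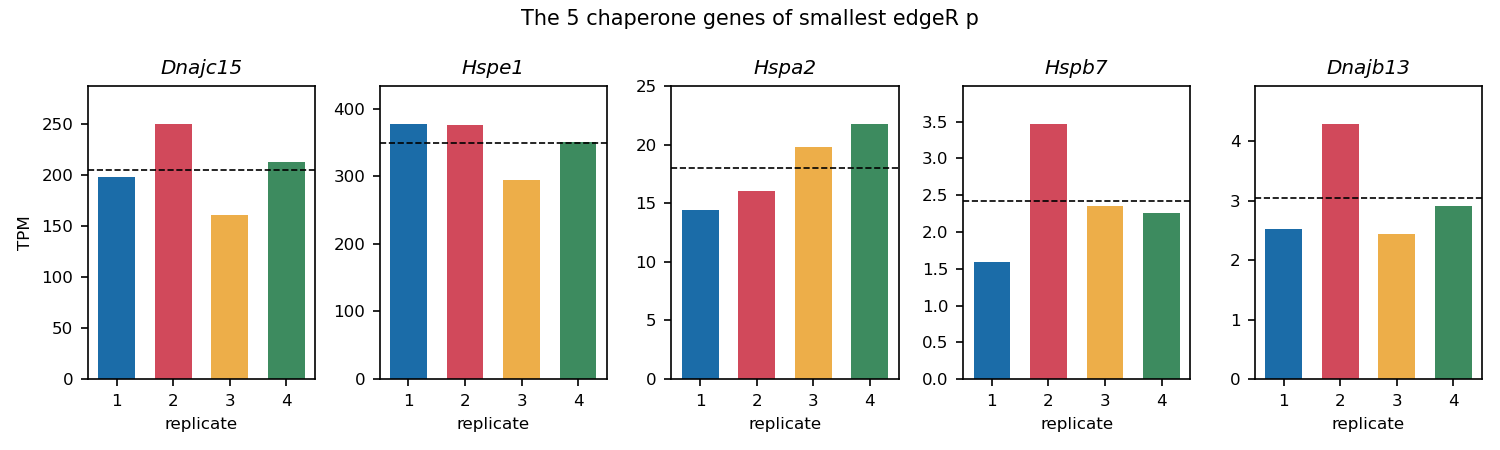
TPM in each of the 4 libraries for the 5 members of smallest edgeR p, with a dashed line at the mean and axes from 0 that differ between panels. Dnajc15, Hspb7 and Dnajb13 are highest in replicate 2, Hspe1 is lowest in replicate 3 at 294 TPM, and Hspa2 lies at 14.4 and 16.04 in replicates 1 and 2 and at 19.8 and 21.7 in replicates 3 and 4.

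Most members were steady. In 45 of the 65 detected members (69.2%) the highest library was under 1.2 times the lowest, beside 52.1% of detected protein-coding genes, and in 5 (7.69%) it was at least 1.5 times, beside 8.52%. Those 5 were Hspb7, Dnajb13, Hspa1a, Dnajc15 and Hspa2. The median SD of log2 TPM was 0.0772 over detected members and 0.109 over all detected protein-coding genes. The members were on the whole more abundant than those genes, and the difference in spread was not tested.

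Small shifts between libraries went with gene length. By TPM, 26 of the 65 detected members were highest in replicate 3 and 5 in replicate 4, beside 42.4% and 13.7% of all detected protein-coding genes. A further 20 were highest in replicate 1 (27.3% of all genes) and 14 in replicate 2 (16.6%). Lowest values fell to replicate 4 in 21 members (19.6% of all genes), replicate 2 in 18 (43%), replicate 3 in 16 (17.3%) and replicate 1 in 10 (20.1%). The members' median deviation from the mean of 4 libraries was 0.02, -0.03, 0.03 and -0.03 on the log2 scale for replicates 1 to 4, and that of all detected protein-coding genes 0.02, -0.05, 0.06 and -0.02. On CPM with TMM factors, which scales counts by library only, the order turned. A gene's length is the same in all libraries, so CPM and TPM order them differently only through the scaling of each library. Replicate 2 was then highest for 29 of the 65 members and replicate 3 for 12, beside 30.8% and 27.6% of all detected protein-coding genes. The order of libraries among the members thus depends on the scale. With length and GC trends removed from CPM, replicate 2 was highest for 26 members and replicate 3 for 12, beside 29.2% and 26.9% of all genes. Replicate 2 was lowest for 7 members on either CPM scale, beside 26.9% of all genes, or 26.3% with the trends removed.

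Across the 65 detected members the deviation in replicate 2 fell with gene length (Spearman's rho -0.461) and that in replicate 3 rose (0.400). Over all 10754 genes the values were -0.516 and 0.519. These are descriptions across genes, which share library and depth and are not independent. Genes counted over fewer than 1000 bases had a median deviation of 0.12 in replicate 2 and -0.17 in replicate 3 (306 genes), and those of at least 5000 bases -0.11 and 0.11 (4208 genes). Dnajc15, at 648 bases, is the shortest detected member and Hspe1, at 1474, among the shorter, and both were low in replicate 3. Dnajb14, the longest at 15741 bases, averaged 3.39 ± 0.503 TPM, was lowest in replicate 2 at 2.73 and highest in replicate 1 at 3.88. The part of length in the Dnajc15 call was not tested on its own.

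**Figure D5:**
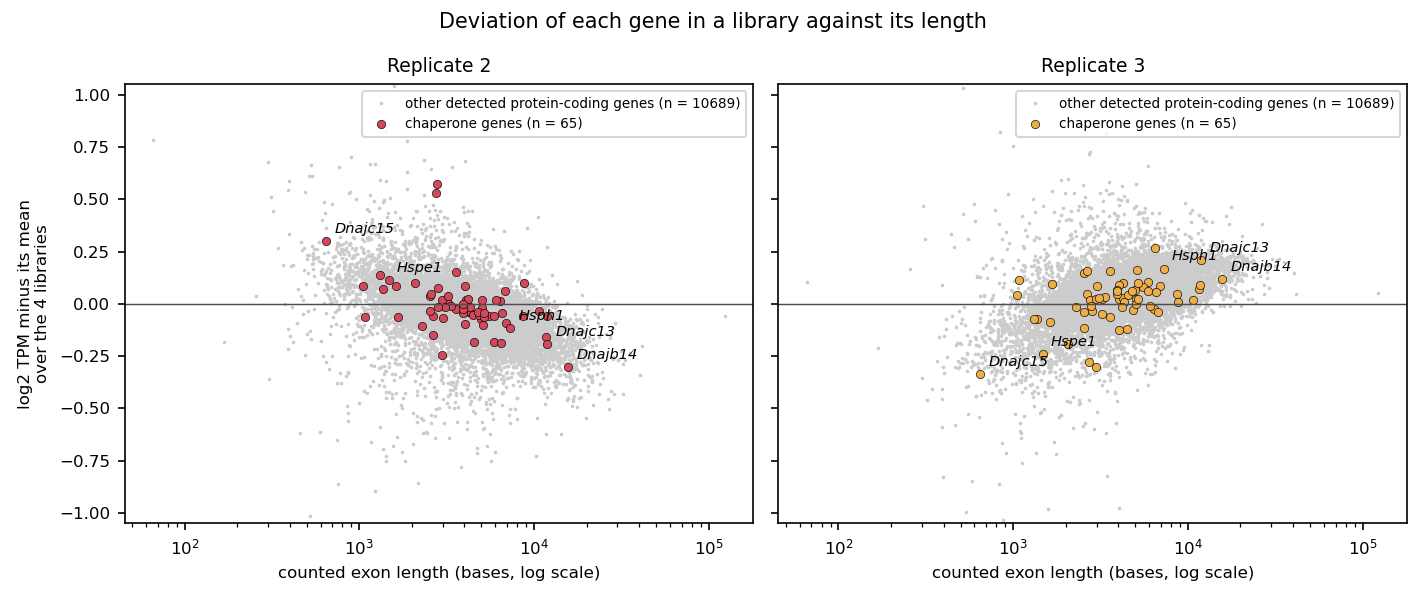
Log2 TPM minus the gene's mean over the 4 libraries against counted exon length in bases (log axis), in replicates 2 and 3, for 65 chaperone genes (coloured) and 10689 other detected protein-coding genes (grey); 4 genes lie outside the vertical range. The cloud falls with length in replicate 2 and rises in replicate 3, and Dnajc15, at the short end, follows it in both.

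The chaperones' partner genes were taken from 7 lists, of which 83 genes are reported here. Of the 83, the gene listed as Zrf1 is the member Dnajc2 under another symbol, and the other 82 were measured and are no members. Of these 82, 77 were detected. edgeR tested 78 of the reported genes, and 0 had an adjusted p under 0.05 (0.687% of all genes tested), 8 had an unadjusted p under 0.05 (7.01% of all genes tested), and 0 were dispersion outliers by DESeq2. Of the heat shock factors, Hsf1 measured 160.3, 148, 175 and 153 TPM and Hsf2 7.28, 6.18, 7.93 and 6.85. Hsbp1, whose product binds HSF1, averaged 98.3 ± 4.14 TPM, and Hsf4 and Hsf5 were not detected. All 22 genes of the list of HSP90 cochaperones and client factors, which also holds Trap1, were detected, led by Stip1, the HOP adaptor between HSP70 and HSP90, at 591 ± 12.6 TPM (SD, n = 4). Nudc followed at 498 ± 17.1 and Ahsa1, the activator of the HSP90 ATPase, at 497 ± 6.33.

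All 10 HSP70 cochaperones listed were detected, led by the exchange factor Bag1 at 355 ± 27.1 TPM, St13 (the HIP protein) at 312 ± 3.09 and the exchange factor Hspbp1 at 264 ± 29.7. Serpinh1, the collagen chaperone HSP47, which is no HSP70 cochaperone, stood in the same list and was not detected, at a mean of 0.00735 TPM. For TRiC, 14 of 15 prefoldin, phosducin-like and tubulin cofactor genes were detected, led by Pfdn1 (230.0 ± 25.4), Tbca (221 ± 27.5) and Pfdn5 (198 ± 20.6). Pdcl2 had 0 counts. All 10 mitochondrial partners were detected, led by the proteases Clpp (274 ± 22.4) and Lonp1 (263 ± 12.7), with the import motor subunit Timm44 at 97.5 ± 0.585.

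All 16 ER chaperones and folding enzymes were detected, and Calr, the lectin chaperone calreticulin, averaged 1084 ± 50.7 TPM, above the ER members Hspa5 and Hsp90b1. P4hb and Pdia3, disulfide isomerases, averaged 662 ± 15.6 and 634 ± 8.32. Among J-domain genes with other symbols, Gak averaged 116 ± 10.1 and Sec63 39.1 ± 2.29 TPM, and Samd13 was not detected.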

How the data were processed

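The authors deposited whole-number counts of read pairs per gene, made, per the file headers, with featureCounts 1.4.6-p4 on GENCODE mouse release 13 exons, by strand and with both ends aligned, together with the merged exon length in bases. The build is mm10 per the labels; no aligner version is stated there or in the headers. Symbols and gene types came from GENCODE release 21, which matched 50376 of 50600 genes. TPM was computed here from counts and lengths. Variability was tested on the deposited counts in edgeR 4.0.16 (R 4.3.3) with TMM factors, filterByExpr, trended dispersion and an intercept-only fit on 3 residual degrees of freedom, Benjamini-Hochberg adjusted over 13681 genes, and the script was tested on simulated data. Pairs were compared on log2(TPM + 1), which understates differences of low genes. A planned search of promoters for motifs and a comparison of proteins are not reported here; promoter windows and transcripts were compared with each other instead, which was decided after the data were seen. Depth limits precision: intervals and the floor of 3 counts cover counting error only.

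The members, lists and pairs were chosen with earlier results of these data known. Values per library are given for genes of pairs, TRiC subunits, the 3 highest members of a family, the 5 members of smallest p and the 5 of largest SD, and other members with mean and SD. Of partner lists the 3 highest genes, Hsf1, Hsf2 and called genes are named; the rest were chosen after their values were seen. A gene of these lists is not reported here, nor counted among those reported. Alternatives were TPM thresholds of 0.5 and 5, a pseudocount of 0.1, TPM over protein-coding genes, DESeq2 1.42.0, other filters and dispersions, length and GC offsets, CPM and leaving out each replicate. Principal transcript length (the APPRIS principal transcript of release 21, never above the deposited length), counts without length and CPM without length and GC trends were added after the data were seen. Where several transcripts shared the best APPRIS rank, or none had a rank, the longest was taken, by preference from GENCODE's basic set. Genes without a transcript there kept the deposited length. The libraries were not duplicates: the chi-square per degree of freedom between pairs was 20.7 to 46.1.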

Additional observations from a re-analysis of the deposited data

Results flagged for a closer look

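In groups of 4 libraries, a value was marked where its gap to the nearest other library was a large part of the whole range (Dixon's ratio at the 95% level). Chance marks about 1 in 20 such groups. Of 65 detected members, 15 pairs and 13 family sums, 2 were marked. Dnaja2 was lower in replicate 4, at 262 TPM beside 277 to 279 in the other libraries, with a gap of 0.901 of the range. Dnajc7 was higher in replicate 1, at 127 TPM beside 111 to 113, with a gap of 0.879 of the range.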

How the results depend on the processing

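No paired analysis was possible because the labels give 1 group. Detection of members stayed within 1.5 times of 65 under all alternatives run, and no pair changed direction. The count of variable members went from 1 to 0 without the filter, with a mean count of at least 50, with length and GC offsets, with DESeq2 dispersion outliers (43 outliers over all genes) and without each replicate in turn (range 0 to 0). Over all genes, the run without the filter called 67 of 23575, that with the mean count 93 of 12263 and that with offsets 108 of 13681. Leaving out a replicate called 38 to 87 genes. At an unadjusted edgeR p under 0.05 these settings gave 5 of 74, 2 of 66, 2 of 69 and, without a replicate, 2 to 3 of 68 to 69 members tested. The share of all genes at that unadjusted p is not given for these settings, and DESeq2 gives no such count. With a common dispersion the count stayed at 1, but the member called was Hspb7 in place of Dnajc15, among 617 genes called in all. Without the filter and with a mean count of at least 50 the edgeR adjusted p of Dnajc15 was 0.321 and 0.258. For the other losses the cause was not tested. The summed level of members was 18688 TPM over protein-coding genes. The TRiC ratio of highest to lowest was 1.63 by principal transcript length and 1.42 by counts. Depth limits members with few fragments, such as Cct6b, Hspb1 and Dnajc22 at 8 to 66 a library.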
